A study of Mus musculus with 16 samples.

Results

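The interferon response genes examined here were 39 mouse genes, given as a list of interferon-stimulated genes, out of 21883 protein-coding genes in the gene table. Peaks of 8 ATAC-seq lists that overlapped were merged into 122020 union regions, and the 230 regions within the span of a member gene or 20 kb on either side were kept. For comparison, the windows of all protein-coding genes held 92720 regions. ATAC-seq marks open DNA by where the Tn5 transposase can insert sequencing adapters.

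Haematopoietic progenitors, labelled as MPP, were taken from mice aged 21 days. There were 8 groups with 2 samples each, 16 in all, and only the sample titles tell apart the 2 sets to which they belong. Set 1 consisted of wild type, Flt3-ITD (a tandem duplication inside the gene that leaves the Flt3 receptor kinase active without ligand), Runx1-het (heterozygous for the transcription factor gene Runx1) and Flt3-ITD/Runx1-het. Set 2 consisted of wild type, NUP98-HOXD13 (a fusion of a nuclear pore gene with a homeobox gene found in leukaemia), Flt3-ITD and NUP98-HOXD13/Flt3-ITD. The labels give neither how each mutation was made or driven, nor the number or sex of the animals, nor the sorting markers. Both samples of a group share 1 deposited peak list. Differences between lists therefore carry no replicate error and no test, and the read depth was unknown. The study's title names variable interferon dependence as its subject, and the lists were compared at the interferon genes for that reason.

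Type I interferons bind the receptor chains Ifnar1 and Ifnar2, whose kinases Jak1 and Tyk2 phosphorylate Stat2. Stat2 and Irf9 are parts of the complex ISGF3, which binds the interferon-stimulated response element (ISRE) at promoters of antiviral genes, while the response to interferon gamma uses gamma-activated sites (GAS). In blood stem and progenitor cells, interferon is known to drive dormant cells into cycle, and some interferon-stimulated genes are active there without infection.

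The promoters of the list carried the ISRE letters often. RefSeq promoter sequence of GRCm38.p6, from 250 bases before to 50 after the start, was found for 32 of the 39 genes. The letters GAAANNGAAA, searched on both strands (TTTCNNTTTC on the other), were in 17 of those 32 promoters (53.1%), against 689 of 17491 promoters of protein-coding genes (3.94%). The GAS letters TTCNNNGAA, the same on both strands, were in 9 of the 32 (28.1%), against 1560 of 17491 (8.92%). A GAS match overlapped an ISRE match at Ifitm3 and at Bst2. These are matches of letters in a fixed window and describe sequence, not binding. The 8 stretches below lie upstream of genes named in the accessibility results that follow. Each is written on the gene's own strand, 5′ to 3′, with the ISRE matches in capitals and adjoining matches as 1 run.
Stat2 (chr10:128270251-128270310, plus strand): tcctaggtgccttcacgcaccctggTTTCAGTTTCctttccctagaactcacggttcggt
Oas3 (chr5:120777700-120777759, minus strand): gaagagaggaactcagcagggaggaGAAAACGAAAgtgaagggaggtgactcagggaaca
Oas1a (chr5:120907526-120907570, minus strand): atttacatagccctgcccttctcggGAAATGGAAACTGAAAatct
Ifit1 (chr19:34640760-34640838, plus strand): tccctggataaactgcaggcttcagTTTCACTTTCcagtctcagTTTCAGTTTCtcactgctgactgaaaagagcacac
Ifit3 (chr19:34583348-34583441, plus strand): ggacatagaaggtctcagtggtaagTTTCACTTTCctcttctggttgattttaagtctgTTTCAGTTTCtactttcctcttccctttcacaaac
Rsad2 (chr12:26456538-26456597, minus strand): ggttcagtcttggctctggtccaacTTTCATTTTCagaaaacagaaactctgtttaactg
Gbp7 (chr3:142530258-142530317, plus strand): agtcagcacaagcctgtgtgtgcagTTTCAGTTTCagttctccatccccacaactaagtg
Isg15 (chr4:156200850-156200921, minus strand): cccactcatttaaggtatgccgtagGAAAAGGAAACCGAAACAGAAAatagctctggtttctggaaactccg

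Ifit1 and Ifit3 each held 2 separate ISRE matches, Oas1a held 2 overlapping ones and Isg15 held 3. Where a promoter with a match had a peak, the distance from the match to the summit, the base of highest signal, was measured. In wild type of set 1, 14 genes had both, with a median distance of 95 bp between the summit and the nearest match (range 2 to 790), and 9 of the 14 lay within 150 bp. In wild type of set 2, 15 genes had both, with a median of 78 bp (range 2 to 791), and 11 lay within 150 bp. Matches were searched only in a short window at the start, and most of these summits also lay close to the start. Short distances therefore follow in part from the search. No other letters or promoters were measured for comparison, so a link between match and summit was not tested. The Ifit1 summit stood 2 bp from a match in both lists, and that of Gbp7 at 14 and 8 bp. The summits farthest from a match were those of Gbp2, Gbp3 and Ifitm3. The best peaks of Gbp2 and Gbp3 had their summits 719 and 756 bp downstream of the start in set 1, and that of Ifitm3 lay upstream of the start.

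**Figure D1:**
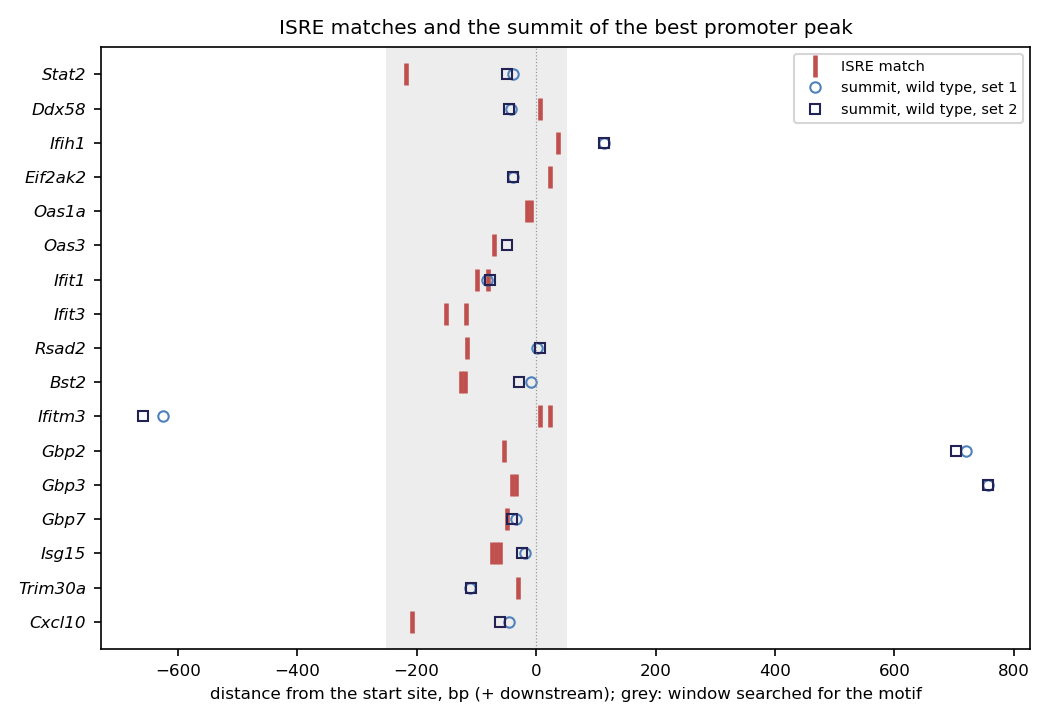
Positions of ISRE matches (red bars) and of the summit of the best promoter peak in the wild-type lists of set 1 (circles) and set 2 (squares) for the 17 members with a match, in bp from the RefSeq start, with the searched window in grey. The summits of Gbp2 and Gbp3 lie far downstream of the matches and those of Ifitm3 far upstream, and Oas1a and Ifit3 have no summit in either wild type.

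The lists differed in length, which bears on every count below. The set 2 Flt3-ITD list held 84080 peaks and a median −log10 p of 15.8, and the other lists held 113325 to 138514 peaks with medians of 24.7 to 38.5. Gains and losses were therefore counted on all peaks and again on the 84080 peaks of highest −log10 p in each list. Promoter peaks were present in all lists at the progenitor marker genes Kit, Cd34, Flt3, Ptprc, Cd48 and Gfi1b, in 7 lists at Slamf1 and in 0 lists at Ly6a. Of the markers of other cell types, the promoters of Cd3e, Cd3d and Cd8a (T cells), Ms4a1 and Pax5 (B cells) and Ly6g and Elane (neutrophils) had no peak in any list. Those of Csf1r (monocytes), Siglech (plasmacytoid dendritic cells), Cd4 and Klf1 had one in all 8. An open promoter does not show that a gene is transcribed. The share of other cells in each sample was not tested, and a change in cell makeup and a change within cells cannot be told apart in these bulk lists.

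Most interferon genes were open at their promoter in every genotype. A promoter peak, here a region within 1 kb of the RefSeq start, was found in all 8 lists for 30 of 39 genes (76.9%), in some lists for 9, and in no list for 0. Among all protein-coding genes 59.3% had one in all lists. For Zbp1, Oas2, Usp18, Ifi27l2a, Dhx58, Rtp4 and Parp14 the window lay around both ends of the gene span, so a peak at either end counted. Dhx58 is among the 30 in this way, although neither of its ends had a peak in all 8 lists. Among the 32 members with a RefSeq start, 26 to 31 had a promoter peak in a list (81.2% to 96.9%), against 61.9% to 67.2% of the 17491 protein-coding genes with one. By list, 35 of the 39 genes had a promoter peak in set 1 wild type, 35 in Flt3-ITD, 38 in Runx1-het and 36 in Flt3-ITD/Runx1-het. In set 2 the counts were 36 in wild type, 35 in NUP98-HOXD13, 31 in the short Flt3-ITD list and 37 in NUP98-HOXD13/Flt3-ITD. The promoters that were open were about as strong as those of other genes. The median percentile of the members' best promoter peak in its own list, where 100 is the highest −log10 p, ran from 85.6 to 91.5 over the lists, against 84.8 to 91.3 for all protein-coding genes. In set 1 wild type 14 of the 17 members with an ISRE match had a promoter peak, against 15 of 15 without one. In set 2 wild type these were 15 of 17 and 15 of 15. Over the lists the median percentile was 85.6 to 94.4 with a match and 85.1 to 91.5 without.

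**Figure D2:**
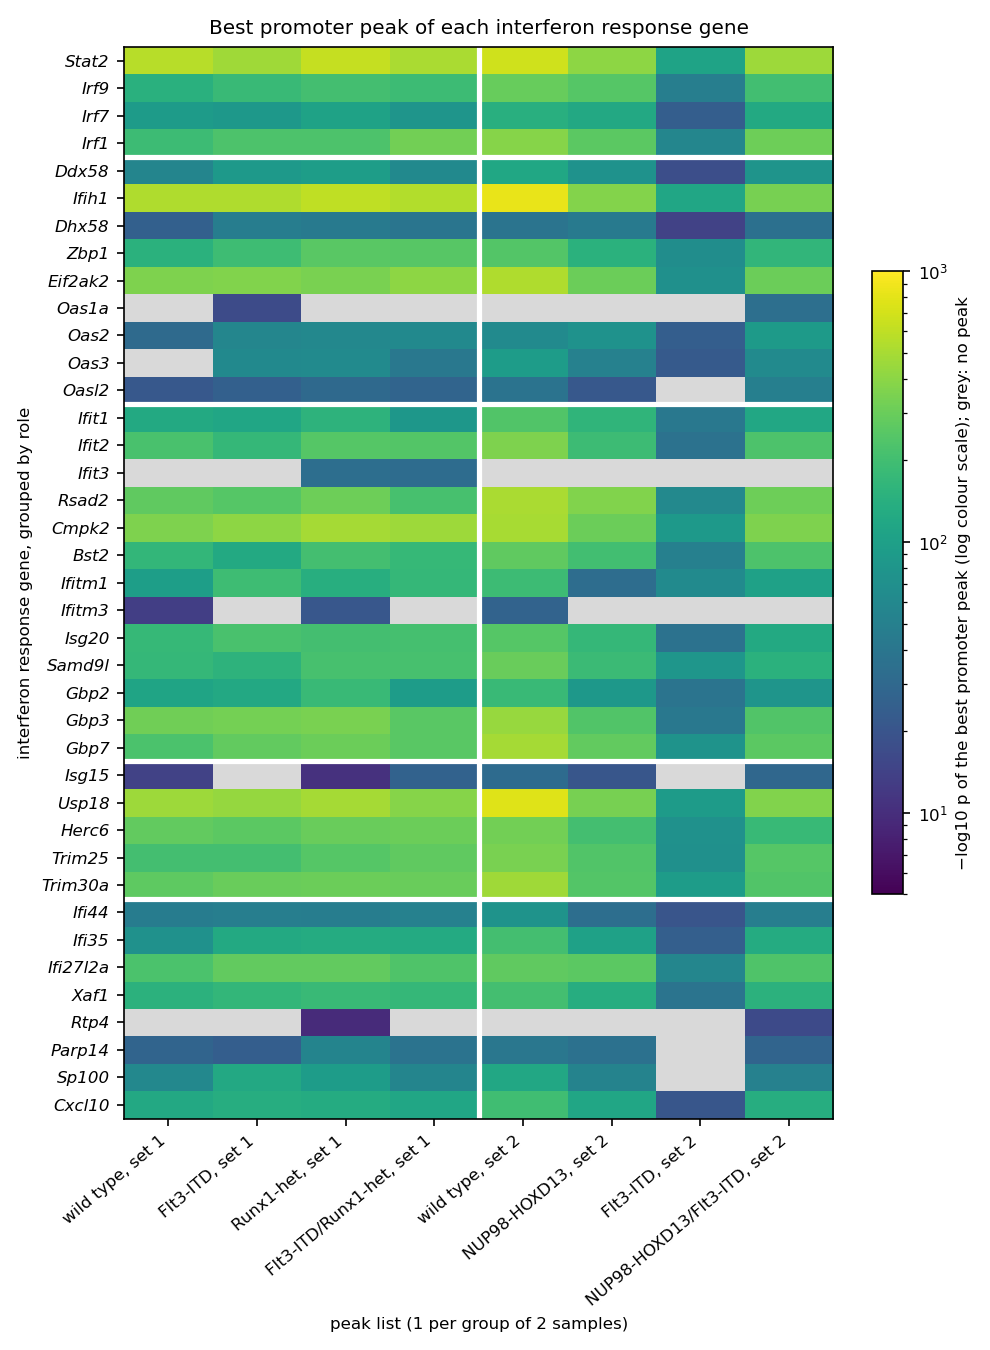
Best promoter peak of the 39 interferon response genes (rows, grouped by role in the order of the text) in the 8 peak lists (columns), coloured by −log10 p on a log colour scale, with grey where the list held no promoter peak. Stat2, Ifih1, Usp18 and Cmpk2 are bright in every column, the grey cells fall on 9 genes, and the set 2 Flt3-ITD column, from the list with the lowest median −log10 p over all its peaks (15.8), is darker throughout.

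All 4 genes of the signalling and transcription factor group had a promoter peak in all 8 lists. Stat2, a subunit of ISGF3, was among the highest 3 member promoters in each list. Its −log10 p in set 1 was 562 in wild type, 469 in Flt3-ITD, 623 in Runx1-het and 508 in Flt3-ITD/Runx1-het. In set 2 it was 686 in wild type, 407 in NUP98-HOXD13, 107 in Flt3-ITD and 457 in NUP98-HOXD13/Flt3-ITD. These values depend on each list's depth, so they rank peaks within a list and do not show a change, and the percentile of the Stat2 peak stayed between 96.2 and 99.2. Irf9, the DNA-binding subunit of ISGF3, ranged over percentiles 85.1 to 95.0. Irf1, a transcription factor induced by interferon gamma, and Irf7, which drives the second wave of type I interferon, completed the group, and Irf7 was the weakest of the 4 in each list, at percentile 65.7 in set 2 Flt3-ITD and 87.5 in NUP98-HOXD13/Flt3-ITD.

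The 9 nucleic acid sensors ranged from some of the strongest to some of the weakest promoters, with a median percentile of 65.2 to 79.2 by list. Ifih1, the cytosolic sensor of long double-stranded RNA also called MDA5, and Eif2ak2, the RNA-dependent kinase PKR, were at the strong end. The Ifih1 peak had a −log10 p of 529 in wild type, 529 in Flt3-ITD, 601 in Runx1-het and 542 in Flt3-ITD/Runx1-het of set 1. In set 2 it was 843 in wild type, 374 in NUP98-HOXD13, 116 in Flt3-ITD and 339 in NUP98-HOXD13/Flt3-ITD, which placed it among the highest 4 members in all lists. Ddx58 (the RNA sensor RIG-I) had a promoter peak in all lists at lower percentiles. Dhx58 (its regulator LGP2) had a peak at an end of its span in each list, also at lower percentiles. Neither end was open in all of them.

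The 2′-5′ oligoadenylate synthetases Oas1a, Oas2 and Oas3, which activate RNase L, and the related Oasl2 were among the weaker sensors. The Oas1a promoter (chr5:120907410-120907838), which holds the 2 overlapping ISRE matches printed above, had a peak in set 1 Flt3-ITD with a −log10 p of 16.9, in NUP98-HOXD13/Flt3-ITD with 34.7, and in none of the other 6 lists. Both lists carry Flt3-ITD, but the set 2 Flt3-ITD list and the Flt3-ITD/Runx1-het list had no peak there, and with equal numbers of peaks it was in the NUP98-HOXD13/Flt3-ITD list alone. The Oas3 promoter (chr5:120777513-120777922) showed no peak in set 1 wild type. Its −log10 p was 61.5 in Flt3-ITD, 63.6 in Runx1-het and 41.4 in Flt3-ITD/Runx1-het of set 1, and in set 2 it was 93.1 in wild type, 51.8 in NUP98-HOXD13, 22.6 in Flt3-ITD and 62.5 in NUP98-HOXD13/Flt3-ITD. The 1 list without it was thus a wild type. In the other 7 lists its percentile ran from 55.5 to 74.8, with 72.8 in set 2 wild type. Oasl2 lacked a promoter peak in set 2 Flt3-ITD alone.

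Among the 13 antiviral effectors, 11 had a promoter peak in all 8 lists, and the exceptions were Ifit3 and Ifitm3. Cmpk2, a mitochondrial nucleotide kinase, and its neighbour Rsad2, which encodes the antiviral radical-SAM enzyme viperin, were among the strongest members, with percentiles of 93.9 to 98.3 for Cmpk2 and 89.0 to 97.6 for Rsad2. Ifit1 and Ifit2, which bind foreign RNA, Bst2 (tetherin, which holds virions at the cell surface), Isg20 (an exonuclease), Samd9l and the guanylate-binding proteins Gbp2, Gbp3 and Gbp7 were open in all lists.

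Ifit3, the partner of Ifit1 in RNA binding, had a promoter peak (chr19:34583036-34583600) only in the lists of Runx1-het and Flt3-ITD/Runx1-het, with −log10 p of 33.7 and 32.3 and fold enrichments over local background of 9.3 and 10.2. The other 6 lists held no peak there, although Ifit1 and Ifit2 on the same chromosome were open in all of them. With equal numbers of peaks the Ifit3 promoter was still in the Runx1-het lists and in no other. It holds 2 ISRE matches, as does the open Ifit1 promoter.

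Ifitm3, a membrane protein that blocks viral entry, had a pair of weak promoter regions. The region centred 582 bp upstream of the start (chr7:141011080-141011573) had a −log10 p of 13.3 in set 1 wild type, 9.22 in Runx1-het and 27.1 in set 2 wild type. The region centred 51 bp upstream (chr7:141010548-141011042) had 13.3 in set 1 wild type and 20.9 in Runx1-het. Neither was in any Flt3-ITD list or in NUP98-HOXD13, so the Ifitm3 promoter was present in both wild types and in 1 of 6 mutant lists. The values are low: in set 1 wild type they stood at percentile 23.0. Both regions left the set 1 wild-type list with equal numbers of peaks, so that in set 1 the Ifitm3 promoter was then a gain of Runx1-het and no loss with Flt3-ITD. In set 2 it was still in wild type and in no mutant. The neighbouring Ifitm1 promoter, by contrast, was open in all lists, with −log10 p of 97.9 in wild type, 191 in Flt3-ITD, 139 in Runx1-het and 171 in Flt3-ITD/Runx1-het of set 1. In set 2 it had 188 in wild type, 33.5 in NUP98-HOXD13, 62.8 in Flt3-ITD and 104 in NUP98-HOXD13/Flt3-ITD. In NUP98-HOXD13 this was percentile 58.9, the lowest of the 8 lists for that promoter.

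In the ISG15 and ubiquitin group, Usp18 (the protease that removes ISG15 and restrains receptor signalling), Herc6 (the mouse ISG15 ligase), Trim25 and Trim30a were open at the promoter in all lists. Isg15 itself, a ubiquitin-like protein attached to other proteins under interferon, had the weakest promoter peak of the group and lacked it in both single Flt3-ITD lists. At its promoter (chr4:156200714-156200985) the −log10 p was 14.1 in wild type, 10.6 in Runx1-het and 26.3 in Flt3-ITD/Runx1-het of set 1. In set 2 it was 32.2 in wild type, 20.8 with NUP98-HOXD13 and 29.3 in the double mutant. On all peaks it was therefore absent with Flt3-ITD alone in each set and present in both double mutants. It was also absent, with equal numbers of peaks, from wild type and Runx1-het of set 1, so the set 1 loss was no longer called, while set 2 was as before.

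Of the 8 other induced genes, Ifi44, Ifi35, Ifi27l2a, Xaf1 and the chemokine gene Cxcl10 had a promoter peak in all lists. Sp100, a nuclear body component, and Parp14, an ADP-ribosyltransferase, lacked it in set 2 Flt3-ITD alone. The Sp100 peak there was not weak elsewhere, with −log10 p of 118.9 in set 2 wild type, 121.4 in set 1 Flt3-ITD and 50.8 to 94.1 in the other 5 lists. Rtp4 had a peak at an end of its long span in Runx1-het and NUP98-HOXD13/Flt3-ITD, at −log10 p of 9.69 and 16.3. Only that of NUP98-HOXD13/Flt3-ITD was left with equal numbers of peaks. A region inside the Rtp4 span (chr16:23557052-23558028) was present in all 8 lists. The Ifit, Oas, Gbp, Ifitm and Trim30 genes stand beside close paralogs, and the treatment of reads that fit several places was not given in the sources used here, so absence of a peak at these genes is uncertain.

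Distal regions, meaning the other regions of a gene's window, were found in all lists for 34 of 39 genes (87.2%), against 71.3% of protein-coding genes. Of the 176 distal regions, 39 lay within 1 kb of the start of a gene outside the list. The 230 regions came to 3 to 11 per gene, with a median of 6, and 12 of them fell in the windows of more than 1 member. Of the 230 regions, 47.0% were present in all 8 lists, against 36.7% of the regions of all protein-coding genes, and 11.7% in 1 list only, against 17.5%. For promoter regions alone the order was the reverse, with 64.8% of the members' 54 in all lists against 72.1%. For distal regions it was 41.5% against 28.3%, but these sets are unlike. The members' 176 keep the 39 at starts of other genes, while the background leaves out the promoter regions of all protein-coding genes.

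The strongest distal regions away from any promoter recurred across genotypes. The first in each list was inside the Sp100 span (chr1:85703207-85704196), with percentiles of 97.4 to 98.9. A region 11.4 kb upstream of Stat2 (chr10:128258725-128259552) was among the first 6 in all lists, as was one centred 20.1 kb from the Ifitm3 start (chr7:140989888-140991472). The latter had a −log10 p of 198 in set 1 wild type and 595 in set 2 wild type, far above the Ifitm3 promoter in the same lists. Eif2ak2 and Isg20 were the only members with no region gained or lost in any of the 6 mutant lists, their 3 and 5 regions being present in all 8.

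**Figure D3:**
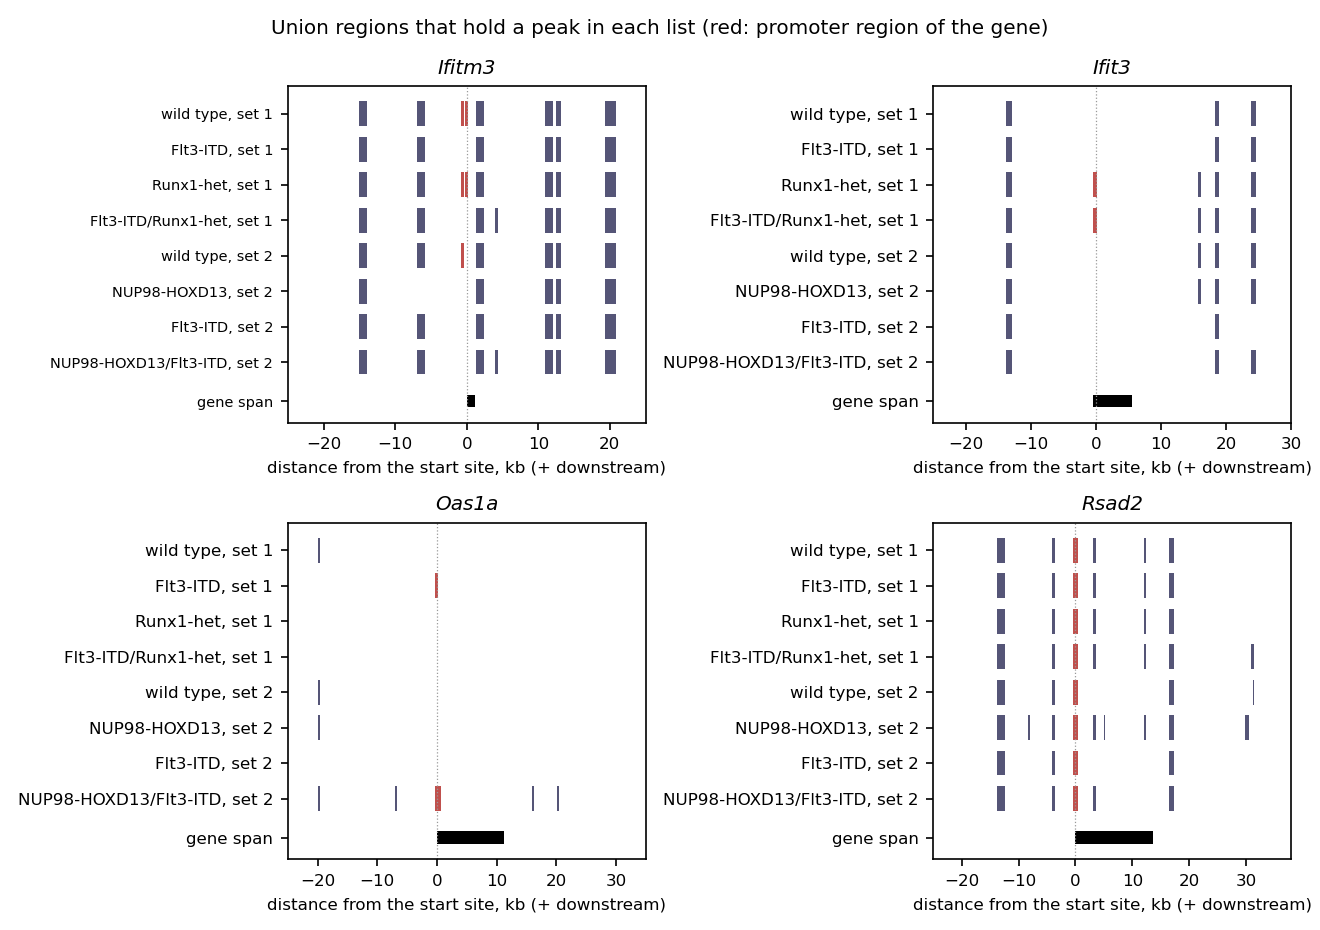
Union regions holding a peak in each of the 8 lists (rows) around Ifitm3, Ifit3, Oas1a and Rsad2, by distance in kb from the RefSeq start (positive downstream), with the gene's promoter regions in red, other regions in grey-blue and the gene span in black. Red marks stand in 3 lists at Ifitm3, 2 at Ifit3, 2 at Oas1a and all 8 at Rsad2. None of the 6 regions of Oas1a is present in all lists.

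A region was called gained where the mutant had a peak in it and the wild type of the same set had none, and lost in the reverse case. Over the 6 mutant lists 32 members had at least 1 gain, 36 at least 1 loss and 31 both. The same share over all protein-coding genes was not counted, so these numbers show nothing particular to the members. The share of member regions gained or lost was compared with the share over the 92720 regions of all protein-coding genes. The wild-type lists of the sets have the same genotype. Anything else that differs between the sets enters their comparison, so it gives no scale for differences within a set. Between these wild-type lists 28 member regions (12.2%, background 17.4) were in set 2 only and 18 (7.83%, background 5.64) in set 1 only. With equal numbers of peaks these were 16 of 198 (8.08%, background 9.82) and 19 (9.6%, background 8.33). The strongest was the Oas3 promoter described above. The Flt3-ITD lists of the sets differed by 9 regions in set 2 only (3.91%, background 3.88) and 40 in set 1 only (17.4%, background 23.1), and with equal numbers by 10 (5.05%, background 6.77) and 27 (13.6%, background 18.9). The mutants below had 3 to 26 gains and 8 to 47 losses within a set. Between these lists of equal genotype 9 to 28 regions were in set 2 only and 18 to 40 in set 1 only. The 40 came from the comparison with the short set 2 Flt3-ITD list.

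Flt3-ITD in set 1 gained 22 member regions (9.57%, background 13.3) and lost 25 (10.9%, background 7.19). The losses included promoter regions of Isg15, both of Ifitm3, an end of Dhx58 (25.2 in wild type), and side regions at the promoters of Zbp1 (a sensor of Z-form nucleic acid), Ifi44 and Gbp3. Zbp1, Ifi44 and Gbp3 kept another promoter peak. At Dhx58, whose window lay around both ends of the span, the peak at one end was lost and one at the other end was gained. The lost region of highest −log10 p was 7.2 kb upstream of Ifit1 (32.3 in wild type). Gains included the promoters of Oas3 (61.5), Oas1a (16.9) and the other end of Dhx58 (46.9), and a region 16.1 kb downstream of the Irf1 start (49.8). Of the 22 gains 14 (63.6%) were open in the wild type of set 2, as were 57% of the gains at all protein-coding genes. The Oas3 promoter (93.1 in that wild type) and this end of Dhx58 (37.5) were among the 14. Both were also gained in the other 2 mutants of set 1. With equal numbers of peaks 17 regions were gained (8.59%, background 10.2) and 18 lost (9.09%, background 7.86). Of the gains, 13 were called both ways, and of the losses 15. Calls made both ways were not counted over all protein-coding genes, here or below. Such counts therefore show nothing particular to the members. The promoter losses still called were those of Dhx58 and Zbp1. Against the wild type of set 2 the losses were 12.2% of member regions, below the background of 14.2.

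Runx1-het gained 26 regions (11.3%, background 14.5) and lost 8 (3.48%, background 6.19), none of them at a promoter. The gains with the highest −log10 p were the Oas3 promoter (63.6), a region 9.7 kb upstream of Trim25 (59.4) and one 19.9 kb downstream of the Oasl2 start (58.5). The Ifit3 promoter (33.7) was another. Of the 26 gains 16 (61.5%) were open in the wild type of set 2, as were 56.5% of the gains at all protein-coding genes. The Ifit3 promoter was not among those 16. With equal numbers 20 were gained (10.1%, background 9.17) and 6 lost (3.03%, background 7.41). With −log10 q of at least 10 the loss share was near the background, at 11 regions (5.26%, background 5.88).

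Flt3-ITD/Runx1-het gained 26 regions (11.3%, background 15.4) and lost 20 (8.7%, background 7.62). Its gains included regions near Trim25 (60.0) and Ifit2 (58.3), the Oas3 promoter (41.4) and the Ifit3 promoter (32.3). Its promoter losses were both Ifitm3 regions and the side regions of Zbp1, Ifi44 and Gbp3. The Isg15 promoter, lost with Flt3-ITD alone, was present. With equal numbers 21 were gained (10.6%, background 12.1) and 15 lost (7.58%, background 8.72), and Zbp1 was the 1 promoter loss still called. The 3 mutant lists of set 1 are set against the same wild type, so their calls are not independent.

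NUP98-HOXD13 lost a smaller share of the interferon gene regions than the background. It gained 23 regions (10%, background 8.36) and lost 18 (7.83%, background 16.1), and with equal numbers 23 (11.6%, background 8.83) and 12 (6.06%, background 10.7). Against the wild type of set 1 the gains were 13% (background 13.6) and the losses 6.52% (background 9.59). The highest −log10 p was 64.8, in a region 15.8 kb downstream of the Ifit1 start (chr19:34656325-34656971), followed by regions near Parp14 (44.1), Trim25 (30.5) and Rsad2 (28.1). The only gained promoter region was a weak one 821 bp upstream of Gbp2 (14.8). Losses included the upstream Ifitm3 promoter region (27.1 in wild type) and a region inside Usp18 (39.3). Of the 23 gains, 11 (47.8%) were open in the wild type of set 1, against 25% of the gains at all protein-coding genes.

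Flt3-ITD in set 2 gained 3 regions (1.3%, background 3.04) and lost 47 (20.4%, background 28). The lost regions included the promoters of Sp100 (118.9 in wild type), Parp14 (40.5), Oasl2 (37.5), Isg15 (32.2) and Ifitm3 (27.1) and regions near Herc6 (94.1) and Ifit1 (88.9). This is the short list, and with equal numbers it gained 11 (5.56%, background 6.93) and lost 26 (13.1%, background 18.2). The losses at interferon genes were below the background share both ways. All 3 gained regions, inside Usp18 (16.7), near Trim25 (11.9) and inside Samd9l (4.84), were open in the wild type of set 1. Of the gains at all protein-coding genes, 32.2% were open there.

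NUP98-HOXD13/Flt3-ITD gained 25 regions (10.9%, background 8.05) and lost 26 (11.3%, background 17.1). Against the wild type of set 1 the gains were 13% (background 12.9) and the losses 9.13% (background 10.2). The gains included a region at Oasl2 and the neighbouring Oasl1 (41.1), both promoter regions of Oas1a (34.7 and 17.9) and the intragenic Oasl2 region (31.0). Of the 25 gains 9 (36%) were open in the wild type of set 1, against 25.9% of the gains at all protein-coding genes. Ifi44 lost 3 regions outside its promoter, with −log10 p of 136, 67.1 and 52.3 in wild type, the last at the start of Ifi44l. With equal numbers 25 were gained (12.6%, background 9.42) and 17 lost (8.59%, background 11.2).

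**Figure D4:**
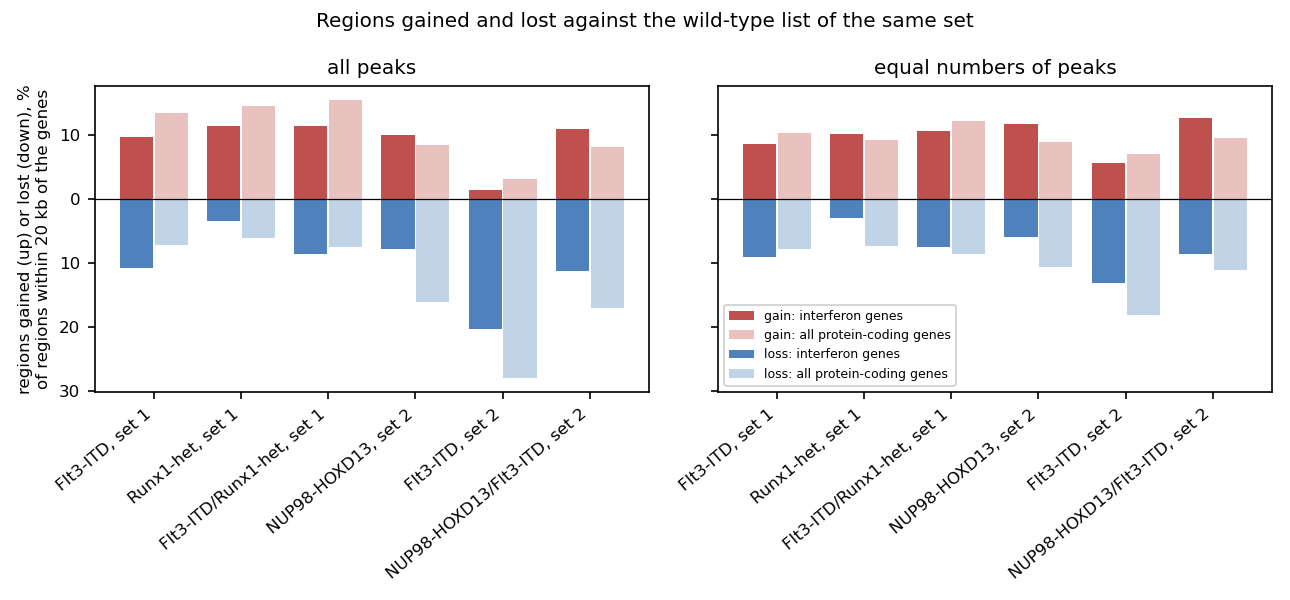
Percent of regions gained (upward, red) and lost (downward, blue) in each of the 6 mutant lists against the wild type of the same set, for the interferon response genes (dark bars) and for all protein-coding genes (pale bars), with all peaks on the left and equal numbers of peaks on the right. Dark loss bars are shorter than pale ones in the 3 mutants of set 2 and in Runx1-het, and set 1 Flt3-ITD is the only mutant with a longer dark loss bar in both panels.

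Regions that went with a mutation within a set, present in both lists that carry it and absent from both that do not, were fewer. For NUP98-HOXD13 there were 10 such gains (4.35%, background 2.73) and 1 loss near Trim25 (0.435%, background 1.77). With equal numbers there were 11 gains (5.56%, background 3.21) and 2 losses (1.01%, background 2.36), and 5 of the gains were called both ways. None lay at a member's promoter. A region inside Rsad2, which is also in the Cmpk2 window (chr12:26452850-26453392), had a −log10 p of 28.1 with NUP98-HOXD13 alone and 31.0 in the double mutant. The region downstream of Ifit1 had 64.8 and 24.1, and the region inside Oasl2 (chr5:114902383-114902763) had 24.7 and 31.0. The other gains were near Ifit1 (a second region), Sp100, Parp14, Ifitm1, Irf1, Oas2 and Cxcl10. Of the 10, 5 (50%) were open in the wild type of set 1, against 31.4% of such gains at all protein-coding genes. The 5 included the Rsad2 region (21.1) and the Oasl2 region (13.2). The gains at Oas2 and Cxcl10 were found in the NUP98-HOXD13 lists alone. The share of such gains at all protein-coding genes was not counted, so this shows nothing particular to the members.

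For Flt3-ITD in set 1 there were 3 such gains (1.3%, background 2.73), at Dhx58, Irf1 and Oasl2, and 8 losses (3.48%, background 1.68). With equal numbers there were 2 gains (1.01%, background 2.56) and 6 losses (3.03%, background 1.79), and 3 of the losses were called both ways. On all peaks the losses were at promoters of Ifitm3 (both regions), Ifi44, Gbp3 and an end of Zbp1, and at Ifitm1, Oas2 and Samd9l. With equal numbers the end of Zbp1 was the 1 promoter region left, and the losses at Ifitm3, Ifi44, Gbp3 and Samd9l were no longer called. The Ifitm1 region, 3.2 kb downstream of the start (chr7:140970805-140971782), had a −log10 p of 28.7 in wild type and 28.3 in Runx1-het. In set 2 it was present in wild type (50.4), NUP98-HOXD13 (57.1) and weakly in Flt3-ITD (6.93), and absent from NUP98-HOXD13/Flt3-ITD.

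For Flt3-ITD in set 2 there were 0 gains (background 0.432) and 7 losses (3.04%, background 4.25), near Ifit2, Rtp4, Ifi27l2a, Zbp1, Usp18, Irf7 and Ifit3. With equal numbers there were 1 gain (0.505%, background 0.929) and 4 losses (2.02%, background 2.49). For Runx1-het there were 4 gains (1.74%, background 2.38), namely the Ifit3 promoter, a region of the Ifit3 window at the start of Ifit1bl1, and regions near Trim30a and Usp18, and 0 losses (background 1.13). With equal numbers there were 4 gains (2.02%, background 1.47) and 1 loss (0.505%, background 1.26), and the Ifit3 promoter was the 1 gain called both ways.

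Across all 4 Flt3-ITD lists and the 4 lists without it, 0 member regions were gained (background 0.0572, and 0.11 with equal numbers). A single region was lost (0.435%, background 0.194), and 0 with equal numbers (background 0.13). It lies 911 bp beyond an end of the Zbp1 span (chr2:173219749-173219991). Its −log10 p was 21.7 in set 1 wild type, 22.0 in Runx1-het, 24.6 in set 2 wild type and 12.8 in NUP98-HOXD13, and the 4 Flt3-ITD lists held no peak there. The main Zbp1 promoter region was open in all 8 lists, at 67.8 to 259.9. Against the wild type of its own set, Flt3-ITD alone lost 8 member regions in both sets, at Xaf1, Ifi35, Zbp1, Isg15, Oas1a, Herc6, Ifitm3 and Bst2 (3.48%, background 3.19), and gained 0 in both (background 0.692). With equal numbers 3 were lost in both (1.52%, background 2.27), at Xaf1, Ifi35 and Bst2, and 3 gained in both (1.52%, background 1.22).

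The genes that receive and relay the interferon signal were open at the promoter in nearly all lists. Of 35 other pathway genes, the receptor chains Ifnar1, Ifnar2, Ifngr1, Ifngr2 and Il10rb, the kinases Jak1, Jak2 and Tyk2, and Stat3 had a promoter peak in all 8 lists. The lambda receptor gene Ifnlr1 had one in 4. Among ligands, the promoter of Ifnb1 was open in 7 lists, all but set 2 Flt3-ITD, that of Ifng in 5, and those of Ifnk and Ifne in 0. In the windows of these 35 genes Flt3-ITD of set 1 gained 39 of 330 regions (11.8%, background 13.3) and lost 16 (4.85%, background 7.19). Runx1-het gained 42 (12.7%, background 14.5) and lost 20 (6.06%, background 6.19), and Flt3-ITD/Runx1-het gained 53 (16.1%, background 15.4) and lost 19 (5.76%, background 7.62). In set 2 NUP98-HOXD13 gained 18 (5.45%, background 8.36) and lost 42 (12.7%, background 16.1). Flt3-ITD gained 10 (3.03%, background 3.04) and lost 79 (23.9%, background 28), and NUP98-HOXD13/Flt3-ITD gained 24 (7.27%, background 8.05) and lost 40 (12.1%, background 17.1). With equal numbers of peaks, which left 279 regions, the set 2 losses were 16 (5.73%, background 10.7) in NUP98-HOXD13, 40 (14.3%, background 18.2) in Flt3-ITD and 15 (5.38%, background 11.2) in the double mutant. The gains were then 15 (5.38%, background 8.83), 16 (5.73%, background 6.93) and 25 (8.96%, background 9.42). In set 1 the equal-number gains and losses were 31 (11.1%, background 10.2) and 12 (4.3%, background 7.86) in Flt3-ITD, 25 (8.96%, background 9.17) and 17 (6.09%, background 7.41) in Runx1-het, and 39 (14%, background 12.1) and 16 (5.73%, background 8.72) in Flt3-ITD/Runx1-het. In all 6 mutants the pathway genes lost a smaller share than the background both ways, and no test of that was possible.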

How the data were processed

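The 39 members and all gene lists were chosen with earlier results of these data known. ATAC-seq peaks of 16 samples came as 8 lists, 1 for each group of 2 samples; the labels describe the matching signal as pooled. Bowtie2 and MACS2 and the builds mm10 and GRCm38 are named in the submitters' processing notes; versions, thresholds, read shifting and duplicate handling: not given in the sources used here. Each peak of the deposited lists has a fold enrichment (a ratio), a −log10 p and a −log10 q, made by the authors' caller; they served to rank, filter and describe peaks of the same list. The deposited score, 413 to 1000 in each list, has no stated meaning and was not used.

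With Python 3.11.15, pandas 2.3.3 and numpy 2.4.6, peaks overlapping by at least 1 bp were merged over the lists, and a list held a region if at least 1 of its peaks lay in it. Gene spans, starts and promoter sequence came from RefSeq tables of GRCm38.p6. The counting was tested on simulated lists. Distances were taken from region centres to the start, or to the nearer end of the span where no start was used, for 7 members. Named were members whose promoter was gained, lost or not in all lists, the 5 highest promoters of each list, up to 8 gained and 8 lost regions per mutant (not all are printed) and regions that follow a mutation. Alternatives were equal numbers of peaks, −log10 q of at least 10, a peak within 250 bp, windows of 5 kb, promoters of 500 bp and the other set's wild type. With 1 list per group no p-value was computed. No genome was used, so distal regions were not searched for motifs.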

Additional observations from a re-analysis of the deposited data

Results flagged for a closer look

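The effect of Flt3-ITD alone was opposite in the sets at 11 member regions. Of these, 10 were gained against wild type in set 1 and lost against wild type in set 2, in the windows of Trim25, Dhx58, Cmpk2, Ifi27l2a, Ifit2, Ifit1, Oasl2 and Usp18. At 1 region, inside Samd9l, the order was the reverse. These were 4.35% and 0.435% of the member regions, against 5.15% and 0.277% of the regions of all protein-coding genes, so the pattern was about as frequent as in the background. With equal numbers of peaks there were 6 (3.03%, background 2.7) and 1 (0.505%, background 0.689). These regions were picked out because the Flt3-ITD list differed from its wild type in one direction in set 1 and in the opposite direction in set 2. The difference between the sets was not tested, since each group has 1 list. By this choice the wild-type lists must also disagree at each of these 11 regions, so that disagreement is no separate result. The set 2 Flt3-ITD list was the shortest of the 8. The region 9.7 kb upstream of Trim25 had a −log10 p of 35.3 in set 1 Flt3-ITD and 67.4 in set 2 wild type and no peak in the other list of either pair, and the part of list length in this was not tested.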

How the results depend on the processing

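No paired analysis was possible because both samples of a group share 1 deposited list, and for the same reason leaving out a replicate was not run. The counts of members with a promoter or distal peak stayed within 1.5 times their value under every alternative run on them. Gains and losses moved further as follows. With equal numbers of peaks, Flt3-ITD in set 2 went to 11 gains and 26 losses and NUP98-HOXD13/Flt3-ITD to 17 losses. With −log10 q of at least 10, gains fell to 15 in NUP98-HOXD13 (7.18%, background 5.12) and 1 in set 2 Flt3-ITD (0.478%, background 0.685). Against the wild type of the other set, Runx1-het had 16 losses (6.96%, background 12.7) and set 2 Flt3-ITD 6 gains (2.61%, background 5.61). No background share was counted for the windows of 5 kb, so their counts show nothing particular to the members. Windows of 5 kb hold fewer regions: gains and losses were 12 and 16 for set 1 Flt3-ITD, 15 and 3 for Runx1-het, 13 and 11 for Flt3-ITD/Runx1-het, 14 and 9 for NUP98-HOXD13 and 10 and 14 for NUP98-HOXD13/Flt3-ITD, and set 2 Flt3-ITD had 22 losses.

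For regions that follow a mutation, the alternatives were chosen after seeing the data. Equal numbers gave 1 loss for Runx1-het, 2 losses for NUP98-HOXD13, 1 gain and 4 losses for Flt3-ITD in set 2, and 0 losses over all 4 Flt3-ITD lists. With −log10 q of at least 10 there were 4 losses for Flt3-ITD in set 1, 1 loss for Runx1-het, 2 losses for NUP98-HOXD13 and 2 losses over all 4 Flt3-ITD lists. Windows of 5 kb gave 1 gain for Flt3-ITD in set 1, 2 gains for Runx1-het, and 4 gains and 0 losses for NUP98-HOXD13. For regions that follow a mutation, no background share was counted with these windows or with the −log10 q limit. The cause was not tested beyond the smaller windows. Read depth was unknown, so a missing peak does not show that a region is closed.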
